A study of Mus musculus with 45 samples.

Results

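Activity-regulated immediate early genes are the first genes that a neuron transcribes after a burst of synaptic input. Calcium entry and MAP kinase signalling act on transcription factors that already sit at their promoters, such as CREB and SRF, so that no new protein is needed, and the mRNAs are short-lived. In the hippocampus these genes are known for their induction by exploration, learning and seizures, and their mRNAs and proteins are widely used to mark recently active neurons. The 10 genes described here were chosen by name: Fos, Fosb, Junb, Egr1, Egr3, Nr4a1, Npas4, Arc, Ier2 and Dusp1. Each symbol matched 1 Ensembl identifier, and all 10 were among the 15897 genes measured, so that none was lost to the authors' filter on low counts.

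The values come from hippocampal RNA of 45 female C57Bl/6J mice. AwTw mice are wild-type, A+Tw mice carry the APPswe/PS1dE9 transgene (mutant amyloid precursor protein and presenilin, both under the mouse prion protein promoter), AwT+ mice carry human tau P301L under the CaMKII promoter, which is active in forebrain excitatory neurons, and A+T+ mice carry both. From 7 months of age the mice ate a standard diet (STD) or a typical Western diet (TWD), and they were sacrificed at 13 months, under anaesthesia with cold saline perfusion. Each mouse was 1 library. Each genotype had 6 mice on TWD. On STD there were also 6 mice each of AwTw and AwT+, but 5 A+Tw and 4 A+T+. The hour of sacrifice and the interval from handling to perfusion are not given in the sources used here.

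Values are on a log2-like scale, on which a difference of 1 corresponds to about a doubling for well-expressed genes and to more than a doubling for low ones. The labels split the mice into batch 0 (20 mice) and batch 1 (25 mice) without saying what a batch was, and the deposited values had batch means made equal, so that batch was kept as a covariate in each fit. App, which the transgene adds to, was 14.29 to 14.86 in the 24 mice without it and 15.05 to 15.80 in the 21 A+ mice, with no overlap. Prnp, whose promoter the transgene uses, ranged from 13.28 to 13.98 and from 14.65 to 15.02, again with no overlap. Mapt did not separate T+ from Tw mice (12.59 to 13.40 against 12.61 to 13.16), so it does not check that label. The 8 markers of excitatory neurons were all present, and their mean per mouse lay between 11.47 and 12.12. The library depth cannot be read from such values, and in bulk tissue fewer cells of a type cannot be told apart from less RNA per cell.

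Fos, Fosb and Junb encode subunits of the AP-1 transcription factor. Egr1 and Egr3 encode zinc finger factors, Nr4a1 an orphan nuclear receptor, and Npas4 a bHLH-PAS factor that responds to calcium entry and controls inhibitory synapses on the active neuron. Arc is not a transcription factor: its protein drives the removal of AMPA receptors from synapses. Ier2 encodes a small nuclear protein, and Dusp1 encodes a phosphatase that switches MAP kinases off and thereby limits the signal that induces the group.

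The promoters of 4 of the genes are shown as background, since CREB-driven transcription is a textbook route to the induction of immediate early genes. Whether these sequences have a part in any difference or correlation described further on was not tested. RefSeq promoter windows (250 bases before to 50 after a RefSeq start, GRCm38.p6) were searched for 6 members. Egr1 was left out of the search by name, and Egr3, Arc and Ier2 had no usable window. The stretch upstream of the start is printed for Fos (chr12:85473640-85473889, plus strand), Junb (chr8:84978749-84978998, minus strand), Nr4a1 (chr15:101266596-101266845, plus strand) and Dusp1 (chr17:26508520-26508722, minus strand, 203 bases, ending 47 bases before the start). Capitals mark the cAMP response element half-site TGACG, read on either strand (CGTCA on the other one), with the full element TGACGTCA holding a half-site on each strand.
Fos: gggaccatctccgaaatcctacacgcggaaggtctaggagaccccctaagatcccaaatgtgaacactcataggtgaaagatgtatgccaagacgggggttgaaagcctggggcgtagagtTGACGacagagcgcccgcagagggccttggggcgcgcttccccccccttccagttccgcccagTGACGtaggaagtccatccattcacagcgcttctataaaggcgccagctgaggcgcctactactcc
Junb: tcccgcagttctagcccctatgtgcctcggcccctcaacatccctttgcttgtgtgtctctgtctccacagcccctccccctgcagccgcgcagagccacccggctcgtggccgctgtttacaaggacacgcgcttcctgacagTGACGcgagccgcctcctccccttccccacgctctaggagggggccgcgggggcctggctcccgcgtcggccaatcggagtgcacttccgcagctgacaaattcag
Nr4a1: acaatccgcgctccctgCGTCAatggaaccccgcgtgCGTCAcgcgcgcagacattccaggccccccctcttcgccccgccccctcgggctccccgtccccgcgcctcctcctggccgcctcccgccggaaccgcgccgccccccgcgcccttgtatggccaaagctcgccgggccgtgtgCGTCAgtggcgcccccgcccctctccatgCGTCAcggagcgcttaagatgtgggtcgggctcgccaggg
Dusp1: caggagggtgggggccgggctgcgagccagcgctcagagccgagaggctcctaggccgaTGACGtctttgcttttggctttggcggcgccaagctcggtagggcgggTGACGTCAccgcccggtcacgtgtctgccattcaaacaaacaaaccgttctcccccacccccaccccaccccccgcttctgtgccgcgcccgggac

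The half-site occurred in all 6 windows (Fos 2, Fosb 1, Npas4 2, Junb 1, Nr4a1 4 and Dusp1 3 matches), against 20.8% of 32817 mouse promoter windows of the same length. In Fos the half-sites began 129 and 66 bases before the start, in Junb 106 bases before it, and in Nr4a1 the pair nearest to the start lay 69 and 40 bases away. Only the Dusp1 window held the full element (1.79% of windows). The EGR motif GCGNGGGCG, searched on both strands, was found in Fosb and Nr4a1 (5.56% of windows), while the AP-1 motif TGANTCA (7.81%) and the CArG box, the serum response element core (1.63%), were in none of the 6 windows. These windows leave out Egr1 and reach at most 250 bases before the start, so that elements further upstream were not searched. The Npas4 window (chr19:4989922-4990221, minus strand) lay wholly inside the annotated gene, with 0 bases before an annotated exon, so that its 2 half-sites are not upstream of that exon. The Nr4a1 and Dusp1 windows also lay wholly inside their annotated genes (chr15:101254269-101274795 and chr17:26505590-26562128). Their starts are thus RefSeq starts within the gene. Only the windows of Fos, Fosb and Junb reached beyond the annotated gene. In all windows but that of Npas4, 203 to 250 bases came before the first exon base in the window. These matches are letters in a window and no measure of binding. The windows behind the shares were not matched to those of the members for base composition.

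The members differed widely in level. Since longer transcripts collect more reads, levels were compared per kilobase of annotated exon (log2-like scale, median over 45 mice). The log2 of the length of all annotated exons of a gene together, in kilobases, was subtracted from its value. Low values are not on a true log2 scale and the expressed transcript may be shorter, so that the order of the low members is approximate. Arc was highest at 9.06, followed by Junb at 8.61 and Egr1 at 8.59, Egr3 at 8.12 and Nr4a1 at 7.75. A lower set was formed by Ier2 (6.40), Dusp1 (6.37), Fos (5.80), Npas4 (4.87) and Fosb (4.86). Over all mice the log2-like value of Fos ranged from 6.14 to 7.82, that of Arc from 9.91 to 11.76, that of Nr4a1 from 8.67 to 10.50, and that of Dusp1 from 7.55 to 8.68. Junb overlaps Prdx2 and Dusp1 overlaps Ergic1 on the opposite strand, and although the study's methods name a stranded library kit, the sources used here do not say whether the assignment of reads used the strand, so these values may hold reads of the overlapping gene.

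**Figure D1:**
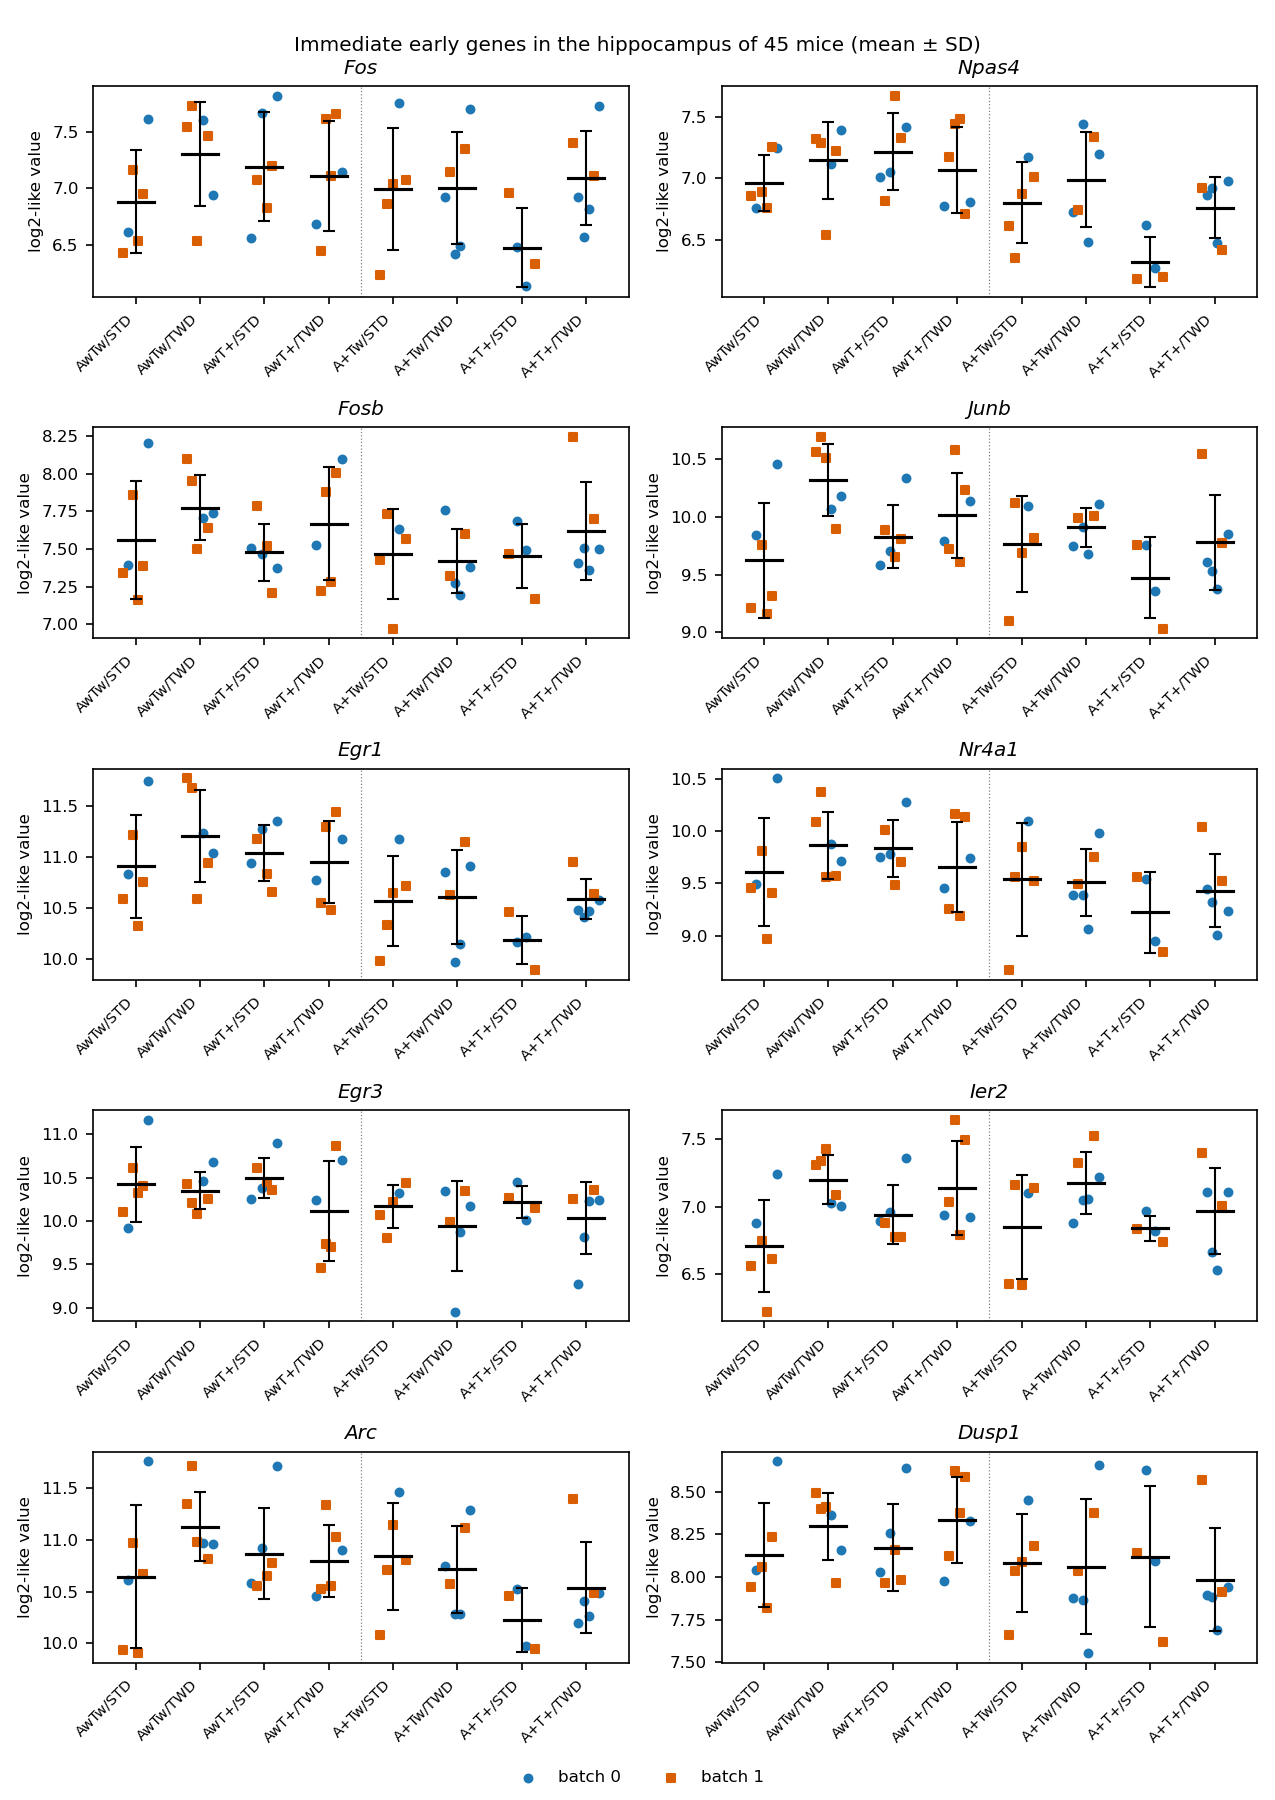
The log2-like value of each member (vertical axis, 1 panel per gene) is plotted for the 45 mice by genotype-by-diet group, with circles for batch 0, squares for batch 1 and the group mean ± SD. Most groups overlap, and each of the pairs of groups with no overlap (3 of 28 for Egr1, 3 for Npas4, 2 for Arc, 1 for Junb and 1 for Ier2) has A+T+/STD, the group of 4 mice, as the lower one. Such pairs were not counted over all genes, so that these counts have no background beside them and are a description only.

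Across the 8 groups, ordered by mean level, neighbouring groups rarely stood further apart than their spread. Of the 7 neighbour pairs of each gene, the gap was larger than the larger of both SDs for 1 pair of Npas4 and for no pair of the other 9 genes. That pair was A+T+/STD, the lowest Npas4 group (6.32 ± 0.205, SD, n = 4), and A+T+/TWD (6.76 ± 0.250, n = 6). A+T+/STD was also the lowest group for Fos (6.48 ± 0.353, n = 4), Egr1 (10.19 ± 0.232), Arc (10.22 ± 0.31), Nr4a1 (9.22 ± 0.38) and Junb (9.47 ± 0.35). AwTw/TWD was the highest group for Fos (7.30 ± 0.463, n = 6), Fosb (7.77 ± 0.216), Egr1 (11.21 ± 0.448), Arc (11.13 ± 0.34), Nr4a1 (9.86 ± 0.32), Junb (10.32 ± 0.31) and Ier2 (7.20 ± 0.18).

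The A+ transgene was associated with lower Egr1 and Npas4. The comparison asks how the hippocampus of mice with amyloid pathology differs from that of mice without it, over both diets and tau genotypes. Egr1 is a factor that links synaptic activity to the late phase of plasticity, and Npas4 is largely restricted to neurons. In A+ against Aw mice Egr1 fell by 0.55 on the log2 scale and Npas4 by 0.38, and they were the 2 of 10 members that passed the test. The other 8 members also had negative differences, which were not past the threshold.

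Egr1 in mice without the A+ transgene was at 10.33, 10.79 and 11.74 (lowest, median and highest) in AwTw/STD, at 10.59, 11.14 and 11.76 in AwTw/TWD, at 10.66, 11.05 and 11.35 in AwT+/STD and at 10.48, 10.97 and 11.43 in AwT+/TWD. With the transgene, the 5 A+Tw/STD mice had Egr1 values of 9.99, 10.33, 10.64, 10.72 and 11.17, and the 4 A+T+/STD mice had 9.89, 10.17, 10.22 and 10.46. On TWD the lowest, median and highest Egr1 values were 9.98, 10.74 and 11.15 in A+Tw mice, while A+T+ mice had 10.41, 10.53 and 10.95. The ranges overlapped, but 19 of the 21 A+ mice lay below the median of the 24 Aw mice, and 11 Aw mice lay above every A+ mouse. The fitted Egr1 difference was −0.55 ± 0.115 (SE, n = 21 and 24, limma, adjusted p = 0.00151). The median of Egr1 was 11.17 in Aw and 10.47 in A+ mice of batch 0, and 10.84 and 10.63 in those of batch 1. The difference was negative in 8 of 8 strata of tau genotype, diet and batch, from −0.99 to −0.11. Fitted within a batch it was −0.56 in batch 0 (adjusted p = 0.0953) and −0.38 in batch 1 (adjusted p = 0.290), neither past the threshold in the smaller number of mice, where 1.16% of all genes were called in batch 0 and 1.81% in batch 1.

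Npas4 showed a smaller shift with more exceptions. Its lowest, median and highest values were 6.76, 6.87 and 7.25 in AwTw/STD, 6.54, 7.26 and 7.39 in AwTw/TWD, 6.82, 7.19 and 7.67 in AwT+/STD and 6.71, 6.99 and 7.49 in AwT+/TWD. The A+Tw/STD mice had Npas4 values of 6.35, 6.61, 6.88, 7.01 and 7.17, and the A+T+/STD mice had 6.18, 6.20, 6.27 and 6.62. On TWD, Npas4 was at 6.48, 6.97 and 7.44 in A+Tw mice, while A+T+ mice had 6.41, 6.89 and 6.98. The 4 A+T+/STD mice were all below the AwTw/STD range, whereas the other A+ groups overlapped with their Aw counterparts, and 17 of 21 A+ mice were below the Aw median. In batch 0 the Npas4 median was 7.05 in Aw and 6.86 in A+ mice, and in batch 1 it was 7.23 and 6.68. The fitted Npas4 difference was −0.38 ± 0.0931 (SE, limma, adjusted p = 0.00774), −0.20 in batch 0 (adjusted p = 0.726) and −0.48 in batch 1 (adjusted p = 0.0944), and it was negative in 6 of 8 strata.

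Over all genes, 3.77% were called between A+ and Aw mice and 0.661% were called lower, so that 2 lower calls among 10 members compare with this background. All 10 members had a negative difference, with a median of −0.25, while the median of all genes was −0.017 and 44.5% of all genes had a positive difference. Most members vary together from mouse to mouse, as described further on, so that their 10 signs are not independent. At an unadjusted p under 0.05 there were 15.1% of all genes and 6 members, namely Egr1, Npas4, Nr4a1 (−0.32 ± 0.118, adjusted p = 0.145), Egr3 (−0.26 ± 0.116, adjusted p = 0.264), Arc (−0.29 ± 0.134, adjusted p = 0.292) and Junb (−0.22 ± 0.108, adjusted p = 0.330). Egr3 had its lowest, median and highest values at 9.46, 10.37 and 11.16 in Aw mice and at 8.96, 10.22 and 10.44 in A+ mice, so that 9 Aw mice lay above every A+ mouse without the difference passing the test. The remaining values were −0.23 ± 0.139 for Fos, −0.18 ± 0.0910 for Dusp1, −0.13 ± 0.0889 for Fosb and −0.036 ± 0.0872 for Ier2 (log2 differences ± SE).

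Other genes moved with the A+ transgene in the same samples. Of 6 microglial markers, 4 passed the test and were higher in A+ mice, and the list mean was 8.75 to 9.21 in Aw and 9.13 to 9.71 in A+ mice. None of the 8 excitatory neuron markers passed it, with 6 of 8 lower and a list mean of 11.55 to 12.12 in Aw and 11.47 to 11.97 in A+ mice, and none of the 7 interneuron markers passed it, with 7 of 7 lower (list mean 10.06 to 10.48 and 9.78 to 10.28). The 9 choroid plexus markers, which belong to tissue lining the ventricle next to the hippocampus, were all higher in A+ mice without passing the test, with a list mean of 5.88 to 10.42 in Aw and 6.29 to 10.18 in A+ mice. With that mean as a covariate the Egr1 difference was −0.49 (adjusted p = 0.0103) and that of Npas4 was −0.43 (adjusted p = 0.00388). Of 6 astrocyte markers only Gfap, which rises in reactive astrocytes, passed the test (1.44 ± 0.0619, adjusted p = 2.1e-21), and the list mean was 11.38 to 12.03 in Aw and 11.28 to 12.34 in A+ mice. No marker of the 6 for oligodendrocytes or of the 6 for endothelial cells passed it. The part of glial and neuronal markers in the differences of the members was not tested.

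The genotype groups were also compared with AwTw on the same diet. The transgenic groups share 1 control group per diet, so that the comparisons on a diet are not independent. No member passed the test in A+Tw mice on STD (0 of 10, with 0.925% of all genes called) or on TWD (0 of 10, 0.824%), or in A+T+ mice on STD (0 of 10, 1.32%) or on TWD (0 of 10, 0.73%). Egr1 differed from AwTw by −0.33 ± 0.230 in A+Tw mice on STD (adjusted p = 0.785) and by −0.62 ± 0.222 in those on TWD (adjusted p = 0.435). In A+T+ mice it differed by −0.73 ± 0.245 on STD (adjusted p = 0.162) and by −0.64 ± 0.222 on TWD (adjusted p = 0.308). For Npas4 the same differences were −0.15 ± 0.186, −0.17 ± 0.180, −0.65 ± 0.198 (adjusted p = 0.106) and −0.39 ± 0.180 (log2 ± SE). At an unadjusted p under 0.05 there were 0 members and 5.66% of all genes in A+Tw mice on STD, 2 members and 5.2% of all genes in those on TWD, 2 members and 14.3% in A+T+ mice on STD, and 4 members and 7.76% in those on TWD.

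The tau transgene alone gave no call. In AwT+ against AwTw mice, 0 of 10 members and 0% of all genes passed on STD, and again 0 of 10 and 0% on TWD, with no member at an unadjusted p under 0.05. Over all T+ against Tw mice, 0 of 10 members passed and 0.0189% of all genes did (limma), again with no member at an unadjusted p under 0.05. The T+ difference furthest from 0 was that of Arc, at −0.23 ± 0.134 (adjusted p = 1.00). With these errors, smaller differences of either sign cannot be told from the spread between mice.

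Junb and Ier2 were called higher on TWD over all genotypes, with positive differences in batch 1 and none in batch 0. The comparison asks for diet effects irrespective of genotype. Junb, the AP-1 subunit that pairs with Fos proteins, rose by 0.34 on the log2 scale and Ier2 by 0.30. They were 2 of 10 members, against 29.4% of all genes called and 16% called higher, so that the share of members called was not above the background.

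Junb on STD had its lowest, median and highest values at 9.16, 9.53 and 10.46 in AwTw and at 9.59, 9.76 and 10.34 in AwT+, while the A+Tw mice had 9.10, 9.69, 9.81, 10.09 and 10.12 and the A+T+ mice 9.03, 9.36, 9.75 and 9.76. On TWD Junb was at 9.90, 10.35 and 10.69 in AwTw, at 9.61, 9.97 and 10.58 in AwT+, at 9.68, 9.95 and 10.11 in A+Tw mice, and A+T+ mice had 9.38, 9.69 and 10.55. The diets overlapped in every genotype, with 17 of 24 TWD mice above the STD median. The Junb difference was 0.34 ± 0.109 (SE, n = 24 and 21, limma, adjusted p = 0.0230). The Junb medians on STD and TWD were 9.80 and 9.82 in batch 0 and 9.69 and 10.12 in batch 1. The difference was −0.013 in batch 0 (adjusted p = 0.981) and 0.62 in batch 1 (adjusted p = 0.0176).

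For Ier2, STD mice had lowest, median and highest values of 6.22, 6.67 and 7.25 in AwTw and of 6.77, 6.88 and 7.36 in AwT+, with 6.42, 6.43, 7.10, 7.14 and 7.16 in A+Tw mice, while A+T+ mice had 6.74, 6.82, 6.83 and 6.96. TWD mice were at 7.01, 7.20 and 7.43 in AwTw, at 6.79, 6.99 and 7.65 in AwT+, at 6.88, 7.14 and 7.52 in A+Tw mice, and A+T+ mice had 6.52, 7.06 and 7.40. Ier2 was above the STD median in 21 of 24 TWD mice. The Ier2 medians on STD and TWD were 6.96 and 7.02 in batch 0 and 6.74 and 7.33 in batch 1. The Ier2 difference was 0.30 ± 0.0861 (SE, limma, adjusted p = 0.0172), with −0.070 in batch 0 (adjusted p = 0.875) and 0.58 in batch 1 (adjusted p = 0.0176).

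In batch 0 alone, with 8 STD and 12 TWD mice, 0 of 10 members and 0% of all genes passed, and the differences ran from −0.31 for Dusp1 to 0.030 for Npas4, which was the only positive one. In batch 1 alone, with 13 STD and 12 TWD mice, 6 of 10 passed, against 40.9% of all genes, namely Junb, Ier2, Arc (0.49), Fos (0.43), Egr1 (0.39) and Dusp1 (0.32). Arc, the effector at the synapse, had its lowest, median and highest values in batch 1 at 9.91, 10.65 and 11.14 on STD and at 10.49, 11.00 and 11.72 on TWD. In batch 0 the order was the other way, with 9.98, 10.77 and 11.76 on STD and 10.20, 10.47 and 11.28 on TWD. The difference of the diet effect between the batches was itself fitted, and 0 of 10 members passed, with 0% of all genes called. At an unadjusted p under 0.05 there were 6 of 10 members and 20.9% of all genes, with values of 0.82 ± 0.252 for Arc, 0.64 ± 0.153 for Ier2, 0.63 ± 0.204 for Junb, 0.61 ± 0.166 for Dusp1, 0.59 ± 0.224 for Egr1 and 0.58 ± 0.230 for Nr4a1 (batch 1 minus batch 0, log2 ± SE, each adjusted p = 0.214). For the A+ effect the same fit gave 0 of 10 members, 0% of all genes and no member at an unadjusted p under 0.05.

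Egr3 was the only member with a negative diet difference, at −0.22 ± 0.112 (limma, adjusted p = 0.118). Its lowest, median and highest values were 9.80, 10.33 and 11.16 on STD and 8.96, 10.24 and 10.86 on TWD, and 16 of 24 TWD mice were below the STD median. It was negative in both batches (−0.20 and −0.17). The other members had diet differences of 0.23 ± 0.140 for Fos, 0.15 ± 0.114 for Egr1, 0.15 ± 0.0944 for Npas4, 0.14 ± 0.135 for Arc, 0.13 ± 0.0865 for Fosb, 0.054 ± 0.116 for Nr4a1 and 0.053 ± 0.0894 for Dusp1, none of them past the threshold.

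Markers of other cells were read beside the diet result. All 9 choroid plexus markers had lower values on TWD and 0 of 9 passed the test (list mean 6.22 to 10.42 on STD and 5.88 to 10.12 on TWD). With that mean as a covariate Junb was 0.33 higher on TWD (adjusted p = 0.0232), Ier2 0.31 higher (adjusted p = 0.0131) and Egr3 −0.27 lower (adjusted p = 0.0426), so that Egr3 crossed the threshold. Of 8 excitatory neuron markers 2 were higher and 0 lower on TWD, and of 7 interneuron markers 3 were higher and 2 lower, while 16% of all genes were called higher and 13.4% lower. Of 6 astrocyte markers, Aldh1l1 (0.24) was higher and Aqp4 (−0.41), Gja1 (−0.38) and Slc1a2 (−0.49) were lower, with a list mean of 11.67 to 12.23 on STD and 11.28 to 12.34 on TWD. Of 6 microglial markers, Aif1 (0.45) and Tmem119 (0.30) were higher and P2ry12 (−0.36) was lower (list mean 8.75 to 9.67 on STD and 8.81 to 9.71 on TWD). Of 6 oligodendrocyte markers 3 were higher and 0 lower (12.42 to 13.01 and 12.34 to 13.05), and of 6 endothelial markers 1 was higher and 0 lower (7.86 to 8.70 and 7.69 to 8.67). Their part in the differences of the members was not tested.

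**Figure D2:**
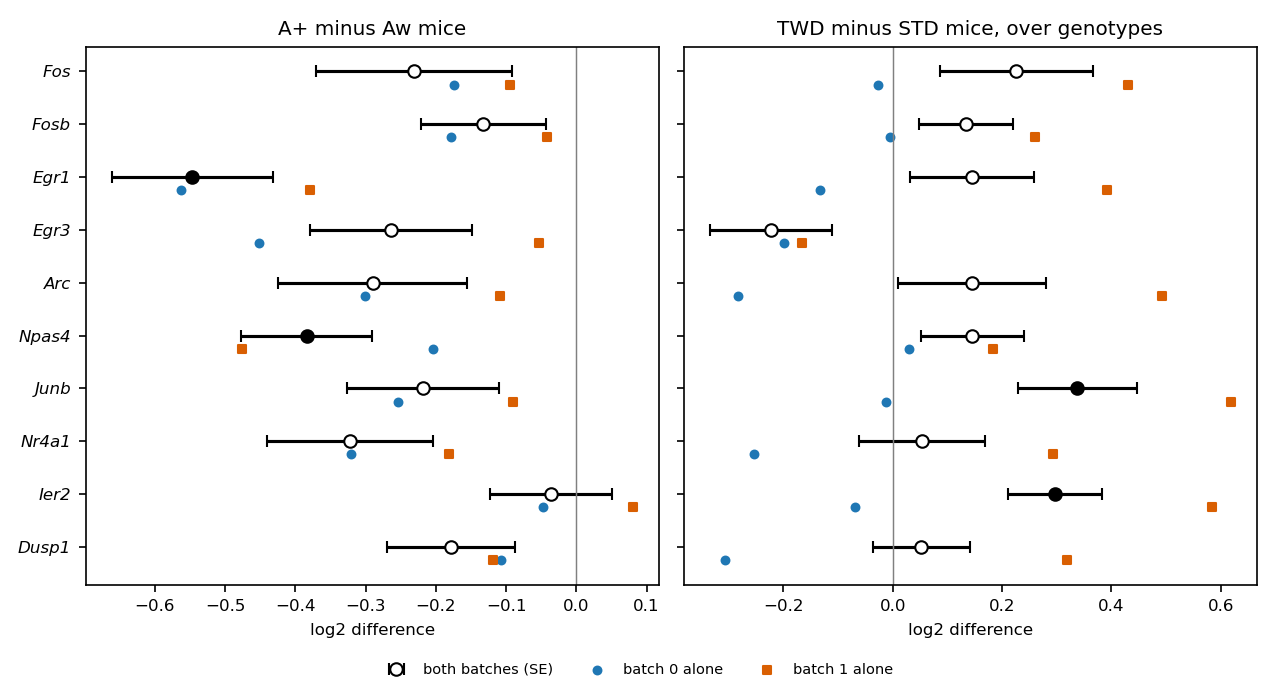
The log2 difference of each member is plotted for A+ against Aw mice and for TWD against STD over all genotypes, with black circles ± SE for the fit over both batches (filled where the adjusted p is under 0.05) and small symbols for batch 0 and batch 1 alone. All 10 members lie left of 0 for A+, and for diet the values of batch 1 lie right of those of batch 0 for each member.

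Within genotypes, the diet test had a call in AwTw mice only, where Junb was 0.69 ± 0.204 higher on TWD (limma, adjusted p = 0.0498). This was 1 of 10 members, against 9.35% of all genes called and 6.01% called higher. Ier2, 0.49 ± 0.165 higher, missed the threshold (adjusted p = 0.0502). At an unadjusted p under 0.05 there were 40.2% of all genes in AwTw, Junb and Ier2 among them. The AwTw mice of batch 1 had Junb values of 9.16, 9.21, 9.31 and 9.75 on STD and of 9.90, 10.51, 10.56 and 10.69 on TWD, with no overlap. Genes that separate in this way were not counted over the whole table, and in batch 1 alone 40.9% of all genes were called for diet over all genotypes. Those of batch 0 had 9.85 and 10.46 on STD and 10.07 and 10.18 on TWD, which did overlap. The call is at the edge of the threshold, since leaving out any of 32 of the 45 mice ended it, and without AwTw/STD replicate 6 there were 3 members called.

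In each of the 3 transgenic genotypes the diet test called 0 of 10 members, with 0% of all genes called. At an unadjusted p under 0.05 there were 2.57% of all genes and 2 members in A+T+, Fos (0.62 ± 0.297) and Npas4 (0.44 ± 0.198, both adjusted p = 0.998). In AwT+ 7.44% of all genes were under that level and in A+Tw 4.43%, with no member in either. The test of whether diet acts differently in a transgenic genotype than in AwTw called 0 of 10 members and 0% of all genes for AwT+, for A+Tw and for A+T+, with no member at an unadjusted p under 0.05 by limma. Junb had interaction values of −0.51 ± 0.290, −0.56 ± 0.301 and −0.39 ± 0.307 in this order (log2 ± SE). Thus the Junb call in AwTw mice was not shown to differ from the other genotypes.

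Mouse titles begin with AM or PM, and the labels do not say what these letters mean. The split held 29 AM and 16 PM mice, with 15 and 5 in batch 0 and 14 and 11 in batch 1. No member and 0% of all genes passed the test of PM against AM. Npas4 was −0.31 ± 0.088 lower in PM mice, with an unadjusted p of 0.00106 and an adjusted p of 0.974 (limma), which ranked 8 among all genes by p. It was the only member at an unadjusted p under 0.05, where 3.57% of all genes were, so that an association of Npas4 with the prefix is not shown. With the prefix as a covariate the A+ differences of Egr1 and Npas4 kept their side of the threshold.

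Most members rose and fell together from mouse to mouse. To look at this apart from the groups, the means of the 8 groups and of batch were removed and the residuals of 45 mice were correlated for all 45 pairs of members. Of these, 38 pairs passed an adjusted p of 0.05 by both Pearson's r and Spearman's rho (100000 permutations, adjusted over the 45 pairs). Pairs of genes outside the set were not counted, so that this number and the medians have no background beside them. Many genes of the table shared an axis of variation, as described further on, so the correlations are not shown to be particular to the members. The median r was 0.62 and the median rho 0.59, with a median r of 0.63 in batch 0, 0.62 in batch 1 and 0.54 without the 2 furthest mice. These were chosen anew for each pair, by their distance from the median in the first-listed gene only, so that mice far out in the other gene could stay in. Since the points of a pair share a library, its depth and its dissection, the correlation describes these libraries.

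Arc and Nr4a1 were the closest pair, with r = 0.89 and rho = 0.83 (permutation p = 1e-05, the smallest that 100000 permutations can give, n = 45), 0.92 in batch 0, 0.87 in batch 1 and 0.86 without the 2 furthest mice. Arc, the synaptic effector, also followed the transcription factors Junb (r = 0.85) and Egr1 (r = 0.83), and the phosphatase gene Dusp1 (r = 0.85). The mean of the other 9 members was followed most closely by Arc (r = 0.92), Nr4a1 (r = 0.90) and Egr1 (r = 0.87). Fos followed Arc with r = 0.79 and Egr1 with r = 0.81.

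Npas4 and Egr3 stood apart from this set. Npas4 pairs had r from −0.081 with Egr3 to 0.46 with Dusp1 and a median of 0.23, and 3 of 9 passed. Their median was 0.46 in batch 0 and 0.080 in batch 1. Egr3 pairs had a median r of 0.43, 7 of 9 passed, and the highest was that with its paralog Egr1 (r = 0.62). Npas4 followed the mean of the other 9 with r = 0.27 and Egr3 with r = 0.48, the lowest values of the 10.

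**Figure D3:**
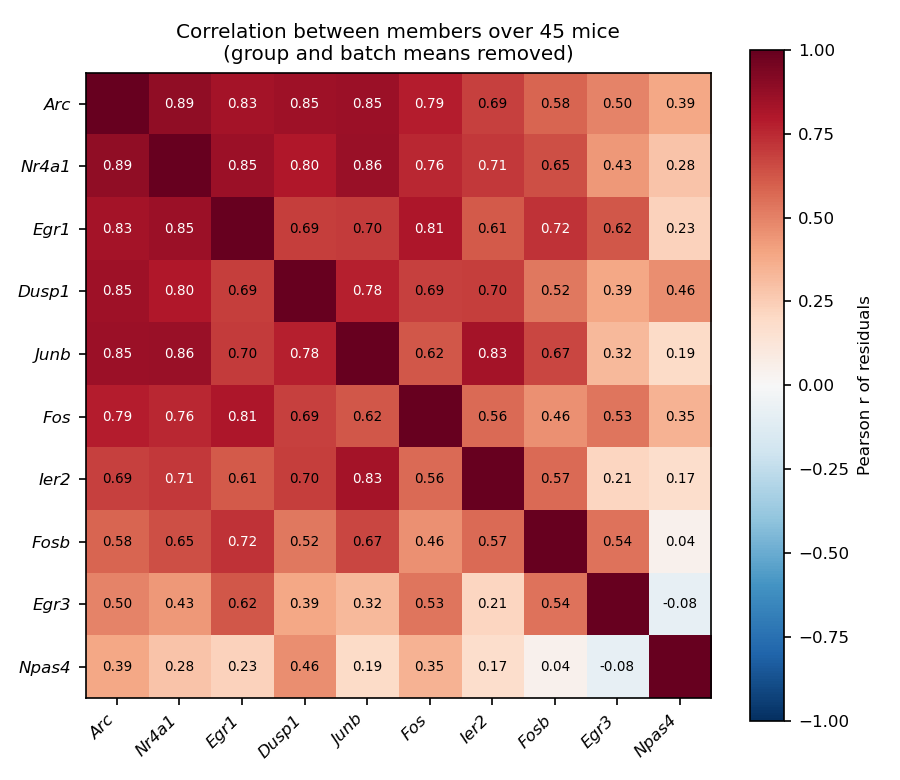
Pearson's r between the residuals of each pair of members over 45 mice is shown as a colour scale, after group and batch means were removed. Most cells are strongly positive, up to 0.89 for Arc and Nr4a1, and the Npas4 cells are the palest, from −0.081 to 0.46.

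**Figure D4:**
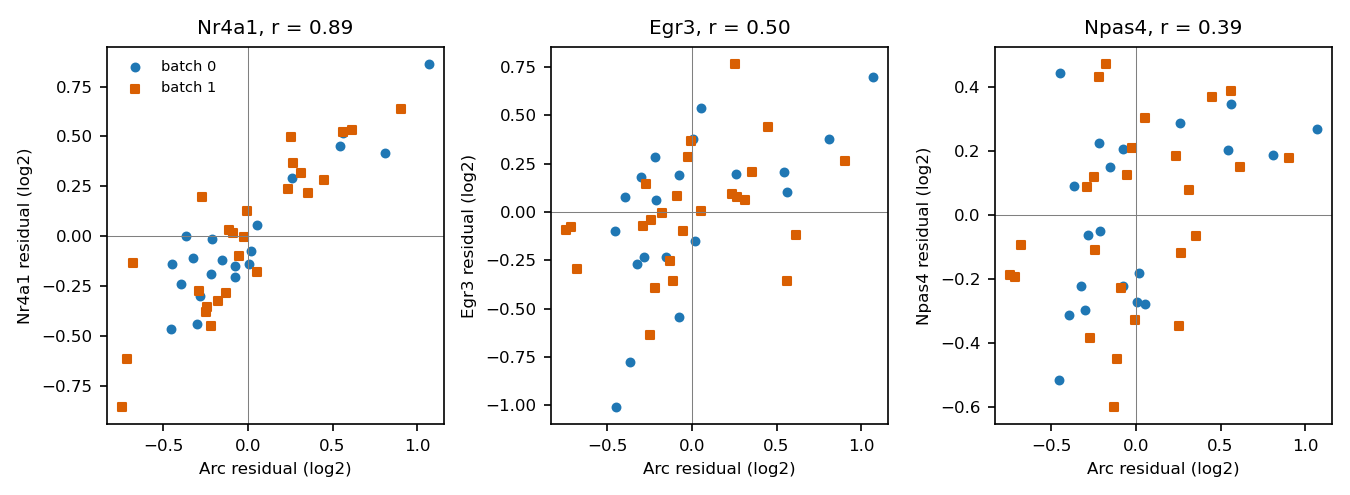
Residuals of Nr4a1, Egr3 and Npas4 (vertical axes, log2) are plotted against that of Arc (horizontal axis, log2), 1 point per mouse, with circles for batch 0 and squares for batch 1. The points follow a line for Nr4a1 (r = 0.89), spread for Egr3 (r = 0.50) and spread further for Npas4 (r = 0.39).

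A broad axis of variation ran through the same libraries. The leading principal component of the residuals, over the whole table, held 41.3% of the variance, and 54.0% of all genes had an absolute r over 0.5 with it. The mean of the 10 members had r = 0.52 with this component. The values of Junb (0.78) and Ier2 (0.77) were the highest of the members, those of Npas4 (0.039) and Egr3 (−0.0014) the lowest, and Fos (0.16) was low as well. For a fit with the component as a covariate, every mouse was given a score by applying the component's gene loadings to its mean-centred values with the group means left in. The score was −0.45 ± 0.845 (SD) on STD and 0.39 ± 0.972 on TWD, and −0.19 ± 1.04 in Aw and 0.21 ± 0.932 in A+ mice. Such a fit also takes out the part of a diet or genotype difference that lies along the component. In it 0 members and 0% of all genes passed for diet over all genotypes (Junb 0.081, Ier2 0.097), and 5 members and 6.47% of all genes passed for A+ against Aw, namely Egr1 (−0.60), Nr4a1 (−0.40), Npas4 (−0.39), Arc (−0.38) and Junb (−0.33). The source of the component was not tested.

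The 8 genes outside the set whose residuals were most like the members' mean were Midn (r = 0.87), Samd4b (0.79), Tbc1d22b (0.78), Zbtb7a (0.78), Rnd1 (0.78), Sh2d3c (0.78), Sbk1 (0.78) and Pias4 (0.78), over 45 mice. Of 38 further rapid response genes, 14 (36.8%) had r over 0.5 with the members' mean, against 9.44% of all genes, and the means of the 2 lists had r = 0.86. Heat shock genes as a list had r = 0.65 with the members, interneuron markers 0.59, excitatory neuron markers 0.50, microglial markers 0.16 and choroid plexus markers −0.097.

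The wider pathway was read from lists of further rapid response genes, of late response genes, of the calcium, MAP kinase and transcription factor genes upstream, and of clock, glucocorticoid and heat shock genes. For A+ against Aw mice, 2 of 38 further rapid response genes were higher and 2 lower, where 3.11% of all genes were called higher and 0.661% lower. The genes called in these lists for A+ mice are named after their values were seen. The higher ones were Zfp36 (0.39 ± 0.0624, adjusted p = 2.45e-05), whose protein destabilises inflammatory mRNAs, and Atf3 (0.41 ± 0.0895, adjusted p = 0.00237), a stress-induced factor. The lower ones were Dusp4 (−0.27 ± 0.0747, adjusted p = 0.0266) and Dusp6 (−0.27 ± 0.0813, adjusted p = 0.0491), which like Dusp1 encode MAP kinase phosphatases. The median of the list was −0.066, with 26 of 38 genes below 0. Of all genes 44.5% were above 0, and this background also belongs to the counts below 0 in the next lists.

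None of the 13 late response genes, such as the activity-dependent growth factor gene Bdnf (−0.075 ± 0.0786), passed the test for A+, with 11 of 13 below 0 and 1 at an unadjusted p under 0.05. Of 42 upstream genes 1 was higher (Elk3, 0.27 ± 0.0666, adjusted p = 0.00765) and none lower, with 33 of 42 below 0. Of 17 clock genes, 2 were lower, Hlf (−0.39 ± 0.0842, adjusted p = 0.00237) and Per2 (−0.31 ± 0.0678, adjusted p = 0.00294), and 16 of 17 were below 0. Mt2, a metallothionein gene of the glucocorticoid list, was higher (0.44 ± 0.128, adjusted p = 0.0378, 1 of 12), and 0 of 7 heat shock genes passed, with 3 of 7 at an unadjusted p under 0.05.

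For diet over all genotypes, the further rapid response genes split, with 4 of 38 higher and 3 lower on TWD, where 16% of all genes were called higher and 13.4% lower. The higher ones were Ppp1r15a (0.46 ± 0.113), Gadd45g (0.40 ± 0.107), Gadd45b (0.26 ± 0.0807) and Dusp5 (0.24 ± 0.0826), genes of the stress response, of growth arrest and of MAP kinase shut-off. Ptgs2, the inducible cyclooxygenase gene, was −0.53 ± 0.149 lower and Fbxo33 −0.44 ± 0.135 lower, as was Tiparp (−0.44 ± 0.169), named after its value was seen. Late response genes were split as well, with Nrn1 (0.19 ± 0.0659) and Grasp (0.23 ± 0.0832) higher and Sorcs3 (−0.24 ± 0.0642) and Rgs2 (−0.49 ± 0.147) lower of 13. All these passed the test (limma, adjusted p between 0.0157 and 0.0462).

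Upstream of the members, 6 of 42 genes were higher and 8 lower on TWD, where 16% of all genes were called higher and 13.4% lower. Hras (0.41 ± 0.107), Map2k2 (0.24 ± 0.0805), both of the Ras and MAP kinase route, and the NMDA receptor subunit gene Grin1 (0.34 ± 0.0973) rose. Mef2a (−0.44 ± 0.131), a transcription factor at activity-regulated promoters, Rps6ka5 (−0.41 ± 0.126), a kinase of CREB and histone H3, and the histone acetyltransferase gene Ep300 (−0.34 ± 0.108) fell. Of 17 clock genes Dbp (0.29 ± 0.108) rose and Bhlhe41 (−0.38 ± 0.122), Rora (−0.47 ± 0.166) and Clock (−0.52 ± 0.194) fell. Of 12 glucocorticoid-responsive genes Mt1 (0.47 ± 0.125), Mt2 (0.44 ± 0.124), Cdkn1a (0.39 ± 0.111) and Tsc22d3 (0.34 ± 0.112) rose and none fell, and of 7 heat shock genes Hspb1 (0.44 ± 0.163), Hspa1a (0.19 ± 0.0715) and Dnajb1 (0.13 ± 0.0488) rose. The part of these lists in the differences of the members was not tested.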

How the data were processed

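Single-end reads were trimmed by the authors (Trimmomatic 0.38), filtered against rRNA and mitochondrial sequence (Bowtie2 2.2.3) and assigned to mouse transcripts (kallisto 0.44.0). Genes of low mean count were dropped, counts were variance-stabilized (DESeq2 1.22.2), and batch was removed (limma 3.38.3) (per the submitters' processing notes and the study's methods). The deposited values are thus on a log2-like scale. Their own tests used DESeq2 on read counts, which were not used here. The methods give only a minimum depth, the depth per mouse cannot be read from these values, and precision is the spread between mice.

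The 15897 genes were fitted with limma 3.58.1 in R 4.3.3, using linear models with empirical Bayes moderation along the mean trend, two-sided tests and Benjamini-Hochberg adjustment over all genes (threshold 0.05), with batch as covariate. One fit of the 8 groups gave genotype, interaction and within-genotype diet contrasts, while diet over all genotypes came from a model of genotype plus diet plus batch. A+ and T+ contrasts weight their groups equally. Scripts were tested on simulated data. Correlations used scipy 1.17.1. Groups, batch and diet came from the labels.

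The members and the gene lists were chosen with earlier results of these data known. Named were all members, at most 6 genes per list by p for diet, the 8 genes most like the members, and App, Prnp and Mapt. The alternatives tried were leaving the batch covariate out, each batch by itself, quantile normalization, genes above the 25th percentile of mean value, no mean trend, the prefix or the first residual component (its gene loadings applied to each mouse's centred values) as covariate, only the groups compared, an ordinary linear model, and each mouse left out. The choroid plexus covariate and the fits of effects by batch were added after seeing the data.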

Additional observations from a re-analysis of the deposited data

Results flagged for a closer look

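In 6 of 80 sets of values (10 genes in 8 groups), the highest or lowest mouse stood apart from the others by Dixon's criterion. Chance alone picks about 1 in 20 sets. Arc reached 11.71 in AwT+/STD replicate 6 (batch 0), where the next mouse was at 10.92, and 11.40 in A+T+/TWD replicate 1 (batch 1), where the next was at 10.49. The same mice were high for a second member, with Ier2 at 7.36 in AwT+/STD replicate 6 (next 6.96) and Dusp1 at 8.57 in A+T+/TWD replicate 1 (next 7.94). On the low side stood Egr3 at 8.96 in A+Tw/TWD replicate 3 (batch 0, next 9.87) and Npas4 at 6.54 in AwTw/TWD replicate 3 (batch 1, next 7.12). Leaving out any of these mice changed neither the count of members called for A+ against Aw nor that for diet over all genotypes.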

How the results depend on the processing

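The 18 results followed were the counts of members called in each comparison and the median correlation of the member pairs. Of these, 14 were unchanged under every alternative and 17 when mice were left out. The counts unchanged under every alternative were all 0 in the main fit, so that their staying at 0 says little. Each count above 0 in the main fit (A+ against Aw, diet over all genotypes and diet in AwTw) moved under some alternative. For the counts 1 mouse was left out at a time, and for the correlations the 2 mice furthest out in the first-listed gene of each pair. The correlations were taken as unchanged if their median stayed within 1 SD of the pair values. For A+ against Aw, with 2 members called (Egr1 and Npas4), the count was 0 in batch 0 alone, 0 in batch 1 alone and 5 with the first residual component as covariate, whose score differed between the groups and so also takes out part of their difference. Over 45 leave-outs the Egr1 difference was −0.58 to −0.50 and that of Npas4 −0.41 to −0.35, both past the threshold each time. For A+T+ against AwTw on STD, with 0 called, the prefix covariate and the residual component gave 1 each. For diet over all genotypes, with 2 called, batch 0 gave 0, batch 1 gave 6 and the residual component 0. For diet in AwTw, with 1 called, 0 were called in batch 0 alone and with quantile normalization, no mean trend, the prefix covariate, the residual component, only the groups compared or an ordinary linear model, 2 without the batch covariate, with genes above the 25th percentile or with the choroid plexus covariate, and 3 in batch 1 alone. Leave-outs gave 0 to 3 (0 for 32 mice, 2 for 12, 3 for 1).

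Some differences turned sign. In batch 0 the diet difference over all genotypes was −0.027 for Fos, −0.0044 for Fosb, −0.13 for Egr1, −0.28 for Arc, −0.013 for Junb, −0.25 for Nr4a1, −0.070 for Ier2 and −0.31 for Dusp1, and with the residual component it was −0.055 for Arc, −0.12 for Nr4a1 and −0.090 for Dusp1. In AwTw mice the batch 0 values were −0.077 for Fosb, −0.15 for Egr1, 0.022 for Egr3, −0.22 for Arc, −0.029 for Junb, −0.20 for Nr4a1, −0.043 for Ier2 and −0.100 for Dusp1, those with the component were −0.023 for Fosb, −0.067 for Nr4a1 and −0.091 for Dusp1, and without AwTw/STD replicate 6 Egr3 was at 0.075 (leave-outs −0.19 to 0.075). For A+, Ier2 was at 0.080 in batch 1 and at 9.16e-05 without AwTw/STD replicate 6 (leave-outs −0.062 to 9.16e-05). The cause was not tested. A single batch holds fewer mice. No paired analysis was possible because the labels number no mice across groups.

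Precision is limited by 4 to 6 mice per group and by read depth, which these values do not show. Fos, Npas4 and Ier2 had the lowest deposited values of the members.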
